A study of Mus musculus with 21 samples.

Results

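Microglia, the macrophages of the brain, carry a set of transcripts that sets them apart from most other macrophages, and 9 genes of that set were followed here in macrophages sorted from mouse kidneys. The members were chosen by name: Tmem119, P2ry12, Gpr34, Trem2, Tyrobp, Apoe, Olfml3, Cd81 and Sall1, each found as 1 line of the deposited count table, which makes 9 of 34236 gene symbols. The libraries came from male C57BL/6J mice labelled as 24 weeks old, whose cells were sorted within a flow sort time of 5 h as F4/80+CD64+ cells, and no in vitro step followed. The conditions compared were a sham operation (Sham) and renal artery stenosis (RAS), in which the methods describe a plastic cuff tied around the right renal artery so that the kidney is chronically underperfused. In both conditions the sort gave kidney-resident macrophages with intermediate CD11b and CD11c (KRM) and cells that the labels call monocyte-derived, split into CD11chi and CD11clo macrophages. There were 3 Sham and 4 RAS libraries of CD11chi, 3 and 4 of CD11clo, and 4 and 3 of KRM, 21 in all. No gene was altered in any group, all mice shared 1 strain and sex, and the labels do not say whether a library held cells of 1 animal or of several, so the p-values below measure the spread between these libraries.

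As background, TMEM119 is a membrane protein of resting microglia and P2RY12 is the ADP receptor with which their processes sense injured cells, while SALL1 is a nuclear factor that holds the microglial programme in place. TREM2 is a receptor for lipids and lipoproteins that signals through its adaptor TYROBP (DAP12), and apolipoprotein E, which carries lipids, is among its ligands. In the brain, TGF-beta and CSF1 receptor signals keep the resting genes on, and microglia near damage lose P2ry12 and Tmem119 transcripts while Trem2, Tyrobp and Apoe transcripts go up.

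The deposited estimated counts summed to between 6891148 and 18592395 per library. Levels are given in CPM, the count divided by the TMM-scaled library size and multiplied by 1000000, always in the order of the replicate numbers. Macrophage markers were present in every group, with all 10 genes of a marker list above 0, but 6 libraries stood apart. The 10 proximal tubule markers summed to 13500 CPM in CD11chi Sham library 3, 4670 CPM in CD11clo Sham library 3 and 1910 CPM in KRM Sham library 3, against 105 to 351 CPM in the other Sham libraries. The 10 distal nephron and collecting duct markers summed to 4940 and 3730 CPM in KRM RAS libraries 2 and 3, against 143 CPM in KRM RAS library 1. CD11clo RAS library 3 stood above the other CD11clo RAS libraries in 7 members at once. Itgax, which encodes the CD11c used in the sort, was at 289 ± 150 CPM in CD11chi Sham, 19.2 ± 7.93 CPM in CD11clo Sham and 383 ± 35 CPM in KRM Sham libraries (SD, n = 3, 3 and 4). In RAS libraries it was at 667 ± 298, 38 ± 21.4 and 197 ± 60.9 CPM (n = 4, 4 and 3), so that KRM lay between the other populations in mean Itgax level after RAS but not in Sham kidneys, where CD11chi libraries spanned 116 to 376 CPM. A second deposited table held log2(TPM + 1) values, scaled for transcript length, and there the column of KRM RAS library 1 did not follow that library's own counts (r = 0.089 over 9714 genes centred across libraries, against at least 0.925 in the other 20 libraries).

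Per transcript length, the 8 members in the second table fell into an abundant and a scarce set. In KRM Sham libraries the mean log2(TPM + 1) level was 13.35 ± 0.33 for Apoe, 11.52 ± 0.24 for Tyrobp and 11.33 ± 0.09 for Cd81 (SD, n = 4). Tmem119 followed at 7.87 ± 0.15, then Trem2 at 5.24 ± 0.25, Gpr34 at 5.07 ± 0.17, P2ry12 at 4.33 ± 0.25 and Olfml3 at 3.82 ± 0.25. Tyrobp and Cd81 were within their spread of each other, and so were Trem2 and Gpr34. The order was another one in CD11clo Sham libraries, where Tmem119 at 2.71 ± 0.61 lay below Trem2 at 5.62 ± 0.34 and P2ry12 at 3.77 ± 0.18 (n = 3). Sall1 has no line in that table.

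**Figure D1:**
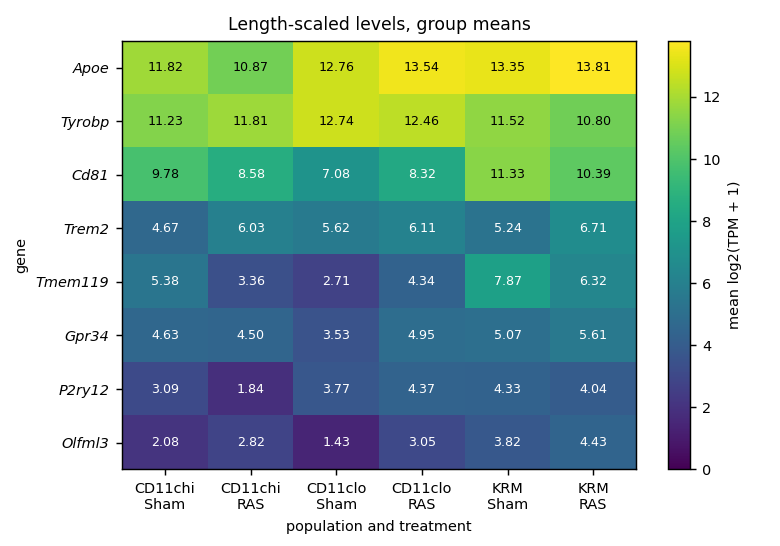
Group means of log2(TPM + 1) for the 8 members in the length-scaled table, one row per gene and one column per population and treatment, with KRM RAS library 1 left out because its column differed between the tables. Apoe and Tyrobp are the brightest rows throughout, Cd81 and Tmem119 are brightest in the KRM Sham column (11.33 and 7.87), and Olfml3 is lowest in CD11clo Sham (1.43).

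The members were first compared between the populations of Sham kidneys, which asks whether kidney-resident macrophages carry this transcript set more than the monocyte-derived macrophages beside them. Tmem119, Cd81, Olfml3, Gpr34, Apoe and P2ry12 were higher in KRM than in CD11clo macrophages, by log2 fold changes from 0.58 (P2ry12) to 5.15 (Tmem119), and Tyrobp was lower. Against CD11chi macrophages Cd81 alone passed the test. Gene positions are those of the GENCODE annotation of GRCm38 (mm10), the build the files use. All differences are log2 fold changes from edgeR's quasi-likelihood test with Benjamini-Hochberg adjustment over all genes tested.

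Tmem119 (chr5:113793729-113800516, minus strand) differed widely between the populations. In the Sham libraries Tmem119 stood at 338, 266, 231 and 247 CPM in KRM, at 75.7, 111 and 19.1 CPM in CD11chi and at 5.38, 11.9 and 5.08 CPM in CD11clo macrophages. After RAS the libraries held 219, 81 and 96.9 CPM in KRM, 89.4, 14.4, 5.67 and 1.58 CPM in CD11chi and 13.5, 9.3, 95.4 and 29.1 CPM in CD11clo macrophages. Every KRM Sham library lay above every other Sham library. In bulk libraries, fewer cells carrying a transcript and less of it per cell cannot be told apart. KRM exceeded CD11clo by 5.15 ± 0.36 on the log2 scale (SE, adjusted p = 2.04e-05), with an adjusted p of 0.00411 at most under every alternative setting. Against CD11chi the difference was 1.95 ± 0.517 with an adjusted p of 0.0797, and it was 1.52 with an adjusted p of 0.00405 without CD11chi Sham library 3, the library rich in tubule markers. CD11chi exceeded CD11clo by 3.24 ± 0.684 (adjusted p = 0.0838), and the replicate block, which was fitted because same-numbered Sham libraries deviated together, gave 3.08 with an adjusted p of 0.0121.

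P2ry12 and Gpr34, which encode membrane receptors of resting microglia, were much less abundant than Tmem119 in KRM Sham libraries. In CD11clo Sham libraries they were not, at mean log2(TPM + 1) levels of 3.77 and 3.53 against 2.71 for Tmem119. P2ry12 levels in Sham kidneys were 19.4, 29.8, 26.4 and 24.3 CPM in KRM, 7.9, 18.8 and 7.79 CPM in CD11chi and 17.3, 17.4 and 14.6 CPM in CD11clo libraries. In RAS kidneys they were 36.6, 15.4 and 26.2 CPM in KRM, 18.8, 1.59, 3.19 and 0.243 CPM in CD11chi and 15.9, 13.1, 63.7 and 26 CPM in CD11clo libraries. The CD11clo and KRM Sham ranges for P2ry12 (chr3:59216272-59262871, minus strand) sat close together, and the lowest P2ry12 libraries were all CD11chi, where RAS libraries 2 to 4 held at most 3.19 CPM. KRM exceeded CD11clo by 0.58 ± 0.194 in Sham kidneys (adjusted p = 0.0421). That call was lost with the replicate block (adjusted p = 0.107), without the libraries rich in tubule markers (adjusted p = 0.117) and in the fit over all 6 groups (adjusted p = 0.634). It was also lost with no filter (adjusted p = 0.055) and without any 1 of CD11clo Sham libraries 1 to 3 or KRM Sham libraries 2 to 4 (adjusted p from 0.0716 to 0.114). Against CD11chi the difference was 1.08 ± 0.351 (adjusted p = 0.122), with every KRM Sham library above every CD11chi Sham library, and it passed without CD11chi Sham library 2 (1.62, adjusted p = 0.0229). P2ry12 lies inside Med12l on the other strand and shares 9 of its 2546 exon bases with it, and Med12l did not exceed 6.2 CPM in any library.

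Gpr34 (chrX:13632089-13640858, plus strand), a receptor for lysophosphatidylserine, lies within an intron of Cask on the other strand and shares no exon base with it. KRM of Sham kidneys held 33, 41.7, 36.6 and 40.8 CPM of Gpr34, CD11chi macrophages 32.5, 33.1 and 22.5 CPM and CD11clo macrophages 12.5, 16.8 and 9.73 CPM. With RAS the levels of Gpr34 were 89.5, 46 and 52.3 CPM in KRM, 58.9, 9.83, 25.3 and 31.7 CPM in CD11chi and 44.9, 12.4, 122 and 22.3 CPM in CD11clo macrophages. In Sham kidneys KRM and CD11chi libraries overlapped while CD11clo libraries lay below both. KRM exceeded CD11clo by 1.52 ± 0.22 (adjusted p = 0.000954), a call lost only in the fit over all 6 groups (1.55, adjusted p = 0.0749). CD11chi exceeded CD11clo by 1.24 ± 0.281 with an adjusted p of 0.0947, or 0.0468 with the replicate block.

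Cd81 (chr7:143052739-143067934, plus strand), a tetraspanin of the cell surface, was the member with the clearest steps between the populations. In the Sham libraries Cd81 stood at 2770, 2160, 1880 and 2170 CPM in KRM, at 753, 1080 and 579 CPM in CD11chi and at 115, 129 and 169 CPM in CD11clo macrophages. After RAS the libraries held 1390, 988 and 1130 CPM in KRM, 654, 302, 427 and 348 CPM in CD11chi and 152, 194, 1200 and 331 CPM in CD11clo macrophages. The 3 Sham populations did not overlap: KRM at 2240 ± 374 CPM lay above CD11chi at 803 ± 253 CPM, which lay above CD11clo at 138 ± 28 CPM (SD). KRM exceeded CD11clo by 4.01 ± 0.208 (adjusted p = 5.3e-06) and every alternative kept this call. KRM exceeded CD11chi by 1.44 ± 0.274 (adjusted p = 0.0298), a call lost with the replicate block (1.48, adjusted p = 0.15), with no filter (adjusted p = 0.0798), in the fit over all 6 groups (adjusted p = 0.116) and without CD11chi Sham library 1 or any 1 of the KRM Sham libraries (adjusted p from 0.0772 to 0.125). CD11chi exceeded CD11clo by 2.61 ± 0.313 (adjusted p = 0.0257), with an adjusted p of 0.0167 under the replicate block, but of 0.079 to 0.223 without CD11chi Sham library 1 or 2 or any 1 CD11clo Sham library. An antisense gene, R74862, shares 104 of the 2879 exon bases of Cd81 and did not exceed 8.4 CPM.

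Olfml3 (chr3:103722222-103738001, minus strand), a secreted olfactomedin-like protein, followed Tmem119 in its order of populations. Olfml3 levels in Sham kidneys were 43.2, 34.2, 30.3 and 33.5 CPM in KRM, 10.6, 17.4 and 4.4 CPM in CD11chi and 4.24, 4.4 and 2.21 CPM in CD11clo libraries. In RAS kidneys they were 66.2, 47 and 54.1 CPM in KRM, 41.6, 24.1, 7.45 and 4.85 CPM in CD11chi and 8.13, 9.54, 59 and 13.6 CPM in CD11clo libraries. KRM Sham libraries lay above all other Sham libraries. KRM exceeded CD11clo by 3.25 ± 0.295 (adjusted p = 7.89e-05, at most 0.00552 under any alternative) and CD11chi by 1.67 ± 0.407 (adjusted p = 0.0625), the latter with an adjusted p of 0.0294 without CD11chi Sham library 2 and of 0.0108 without library 3. CD11chi exceeded CD11clo by 1.62 ± 0.552 with an adjusted p of 0.201.

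Trem2 (chr17:48346401-48354147, plus strand) had no such order in Sham kidneys. KRM of Sham kidneys held 35.6, 29, 26.1 and 25 CPM of Trem2, CD11chi macrophages 16, 20.8 and 17.8 CPM and CD11clo macrophages 50.9, 36.5 and 29 CPM. With RAS the levels of Trem2 were 64.1, 53.7 and 63.4 CPM in KRM, 53.6, 200, 22.7 and 20.1 CPM in CD11chi and 41.5, 43.8, 117 and 39.2 CPM in CD11clo macrophages. CD11clo Sham libraries overlapped with KRM and lay above CD11chi, the reverse of Tmem119. None of the 3 Sham comparisons of Trem2 passed in edgeR with all libraries. The values were 0.61 ± 0.191 for KRM over CD11chi (adjusted p = 0.114) and -1.0 ± 0.277 for CD11chi over CD11clo (adjusted p = 0.141). The latter passed without the libraries rich in tubule markers (-1.25, adjusted p = 0.014) and in DESeq2 (-1.04, adjusted p = 0.0376). For KRM against CD11clo the adjusted p was 0.148, and 0.0252 with KRM lower by a log2 fold change of -0.64 without CD11clo Sham library 3. Without the libraries rich in tubule markers it was -0.59 (adjusted p = 0.0392).

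Tyrobp (chr7:30413760-30417585, plus strand), the adaptor through which TREM2 and several other receptors signal, was abundant in every library. In the Sham libraries Tyrobp stood at 1370, 880, 871 and 855 CPM in KRM, at 1080, 1000 and 471 CPM in CD11chi and at 1740, 1550 and 1300 CPM in CD11clo macrophages. After RAS the libraries held 784, 493 and 524 CPM in KRM, 978, 2010, 1340 and 1270 CPM in CD11chi and 1580, 1900, 1380 and 1570 CPM in CD11clo macrophages. CD11clo libraries held 1300 to 1900 CPM, KRM Sham library 1 overlapped with them at 1370 CPM, and CD11chi RAS library 2 was the highest of the 21 at 2010 CPM. KRM was below CD11clo in Sham kidneys by a log2 fold change of -0.64 ± 0.212 (adjusted p = 0.04, or 0.0376 with the replicate block). This call was lost in the fit over all 6 groups (adjusted p = 0.144). It was also lost without CD11clo Sham library 1 or 2 or KRM Sham library 2, 3 or 4 (adjusted p from 0.0828 to 0.139).

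Apoe (chr7:19696109-19699188, minus strand) was the most abundant member in KRM Sham libraries and uneven within groups. Apoe levels in Sham kidneys were 10400, 7720, 7100 and 5380 CPM in KRM, 2010, 4340 and 1960 CPM in CD11chi and 3250, 2060 and 5390 CPM in CD11clo libraries. In RAS kidneys they were 10100, 6900 and 7590 CPM in KRM, 5670, 8940, 509 and 275 CPM in CD11chi and 4510, 5590, 17500 and 5570 CPM in CD11clo libraries. Within the CD11chi RAS group the libraries spread widely, 8940 against 275 CPM in the highest and the lowest. In Sham kidneys KRM exceeded CD11clo by 1.09 ± 0.341 (adjusted p = 0.0326, or 0.0159 with the replicate block), although KRM library 4 and CD11clo library 3 held nearly the same level. That call was lost in limma on the log2 table (0.59, adjusted p = 0.313), in the fit over all 6 groups (adjusted p = 0.377) and with no filter (adjusted p = 0.0548). It was also lost without CD11clo Sham library 1 or 2 or KRM Sham library 1, 2 or 3 (adjusted p from 0.0515 to 0.0884). Against CD11chi the difference was 1.43 ± 0.404 (adjusted p = 0.0927), with all KRM Sham libraries above all CD11chi Sham libraries, and it passed without CD11chi Sham library 2 (1.89, adjusted p = 0.0436).

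**Figure D2:**
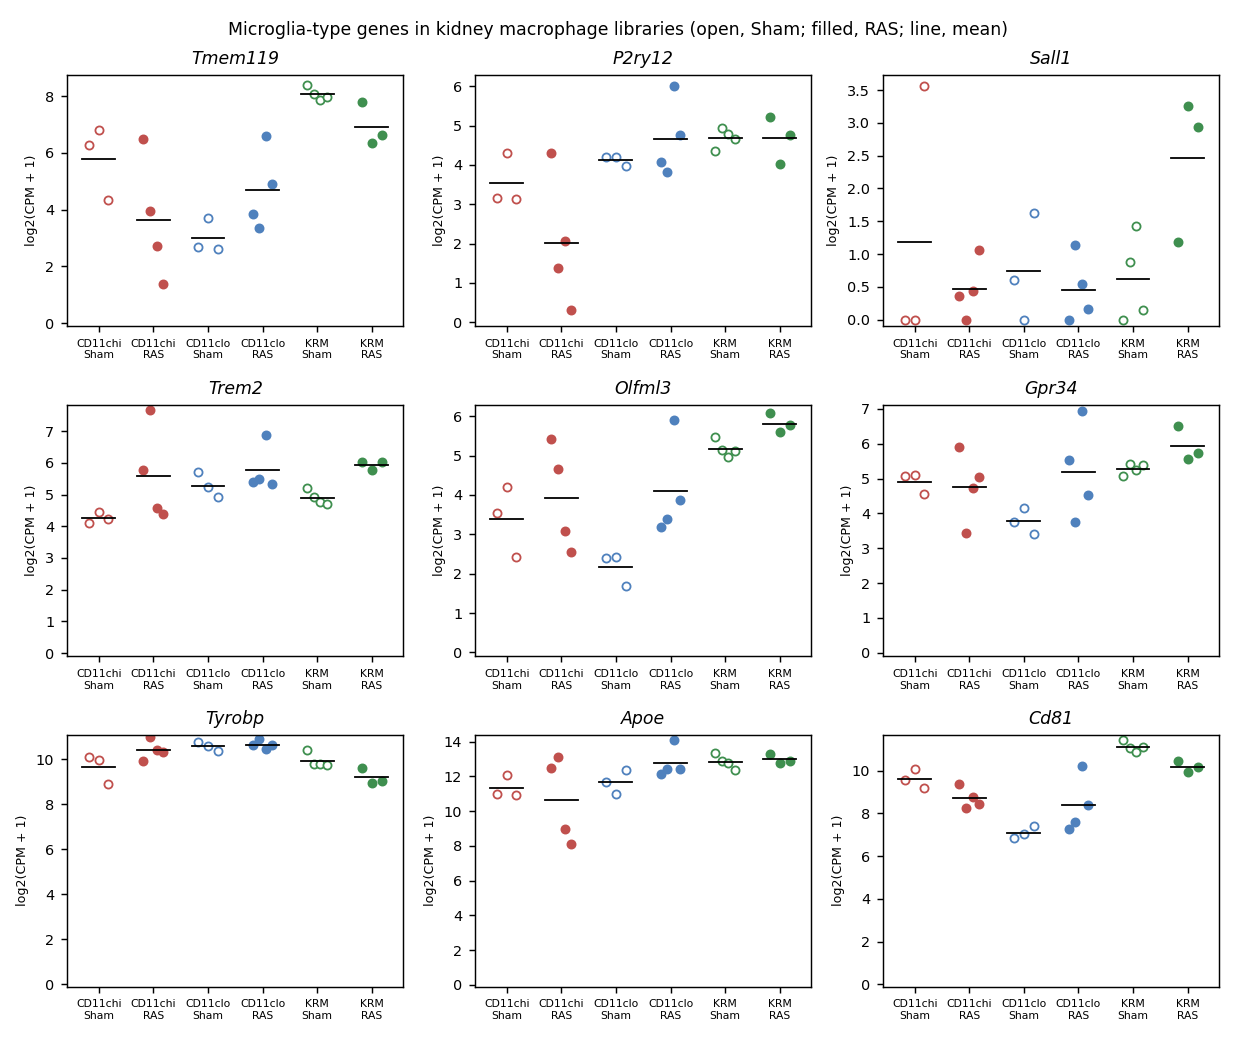
Level of each of the 9 members in all 21 libraries, on the log2(CPM + 1) scale, by population and treatment. Open points are Sham libraries, filled points RAS libraries and lines group means, and the KRM Sham points of Tmem119 (231 to 338 CPM) and Cd81 (1880 to 2770 CPM) lie above all other Sham points while single points stand far from their group in CD11clo RAS and, for Sall1, in CD11chi Sham.

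Of the 8 members tested in Sham kidneys, 6 were called higher and 1 lower in KRM than in CD11clo macrophages. The background of this comparison was wide, since 19.5% of 12399 genes were called higher and 22.3% lower. The fit over all 6 groups, which share 1 estimate of the spread there, called 3 (Tmem119, Olfml3 and Cd81). Neutrophil markers summed to 588 to 1270 CPM in CD11clo Sham against 1.78 to 3.85 CPM in KRM Sham libraries, and monocyte markers to 2530 to 9310 against 537 to 824 CPM, and their part in these calls was not tested. Dendritic cell markers summed to 410 to 1880 CPM in CD11chi Sham against 163 to 215 CPM in KRM Sham libraries. Their part in the KRM against CD11chi calls was not tested. Between KRM and CD11chi 1 member was called higher and 0 lower, where 1.00% of 12404 genes were called higher and 4.12% lower. At an unadjusted p under 0.05 the number was 6, DESeq2 called 5 and limma on the log2 table called 1, and without the libraries rich in tubule markers edgeR called 4 (Tmem119, Olfml3, Apoe and Cd81). Between CD11chi and CD11clo 1 member was called higher and 0 lower (0.917% and 0.603% of 12105 genes), against 3 with the replicate block, 4 with DESeq2 and 5 without the libraries rich in tubule markers. The shares of all genes belong to the main edgeR fits, and those under the other settings are not given here.

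Related genes from fixed lists were counted in the same comparisons. Over all genes 19.5% were called higher and 22.3% lower against CD11clo, and 1.00% and 4.12% against CD11chi. Of 33 tested genes of resting microglia other than the members, 18 were called higher and 3 lower in KRM than in CD11clo, with a median log2 fold change of 0.76 against -0.04 over all genes. Slco2b1, an organic anion transporter, was higher by 4.40 ± 0.244 (711 ± 34.9 against 33.1 ± 10.5 CPM), and C1qa, a chain of the first complement component, by 3.41 ± 0.254 (3080 ± 693 against 287 ± 78.5 CPM). Ltc4s, which makes leukotriene C4, and Fcrls were lower, by log2 fold changes of -3.35 ± 0.486 and -2.72 ± 0.357, so that this list did not move as one. Against CD11chi 4 of 32 such genes were called higher and 1 lower, among them C1qa (1.62 ± 0.34) and C1qc (1.61 ± 0.331), with Fcrls again lower (-4.06 ± 0.628).

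Of 13 regulators of the microglial programme, 7 were higher and 3 lower in KRM than in CD11clo, beside 19.5% and 22.3% of all genes. The receptors for TGF-beta were among the higher ones, Tgfbr1 by 3.55 ± 0.265 (1140 ± 293 against 95.4 ± 13.8 CPM) and Tgfbr2 by 1.96 ± 0.132 (616 ± 63.7 against 156 ± 15.9 CPM). Their ligand Tgfb1 (-0.58 ± 0.125) and the growth factor Csf1 (-2.94 ± 0.316) were lower. Against CD11chi their median log2 fold change was 0.71, edgeR called 0 of 13, and 6 had an unadjusted p under 0.05.

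The list around TREM2 and TYROBP was split in KRM against CD11clo, with 9 of 18 genes lower, 5 higher and a median of -0.70, where 22.3% of all genes were lower and 19.5% higher. The TYROBP-coupled receptors Trem1 (-6.12 ± 0.48, 2.87 ± 1.87 against 192 ± 82.4 CPM) and Trem3 (-5.41 ± 0.364) were lower, and Clec5a, another such receptor, was higher (1.25 ± 0.202). Sirpb1a was also higher (0.94 ± 0.205), but it has close copies among which reads may be split. Trem1 and Trem3 were lower than in CD11chi as well (-4.08 ± 0.755 and -4.17 ± 0.778), where 3 of 18 genes were lower and 0 higher.

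The transcripts known from microglia near damage were split in KRM against CD11clo, with 9 of 22 higher and 7 lower. For this and the next 3 lists the background was 19.5% of all genes higher and 22.3% lower. Itgax (4.31 ± 0.275) and the receptor kinase Axl (3.55 ± 0.23, 1730 ± 116 against 146 ± 51.7 CPM) were higher, and the fatty acid binding protein gene Fabp5 (-3.67 ± 0.282) and the chemokine gene Ccl6 (-3.16 ± 0.209) lower. Itgax encodes a protein used in the sort. Of the lipid-handling partners of Apoe, 2 of 15 were higher and 8 lower, with Lipa, the lysosomal acid lipase, higher by 0.99 ± 0.1 and Nr1h3, the liver X receptor alpha, lower (-2.62 ± 0.582). Of 12 tetraspanins beside Cd81, 6 were higher, including Tspan33 (3.27 ± 0.759) and Tspan4 (2.08 ± 0.341), and 2 lower, Cd37 (-0.72 ± 0.142) and Tspan14 (-0.63 ± 0.1). Of 12 nucleotide and lysolipid receptors and their enzymes, 6 were higher, with P2ry6 (2.12 ± 0.14) and P2rx7 (1.5 ± 0.182) ahead, and 4 lower, with P2ry10 (-3.95 ± 0.472) and P2ry14 (-2.58 ± 0.307) ahead.

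Against CD11chi the last 4 of these lists gave 0 higher calls, which is near the 1.00% of all genes called higher there. Over all genes 4.12% were called lower. The lower calls were 2 of 22 damage-associated genes, including Fabp5 (-3.20 ± 0.323), 2 of 14 Apoe partners, including the phospholipid transfer protein gene Pltp (-1.42 ± 0.301), 0 of 12 tetraspanins (2 at an unadjusted p under 0.05) and 2 of 13 receptors. Between CD11chi and CD11clo few list genes passed. Itgax (3.95 ± 0.552) was higher in CD11chi, and Cst7 (-2.42 ± 0.358) and P2ry14 (-2.72 ± 0.431) lower. Siglech, a member of 2 lists, was called higher as well, at 16.4 ± 5.67 against 0.472 ± 0.109 CPM. It passed the filter only through CD11chi libraries, where it is high, so no difference is read from it.

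The same populations were then compared within RAS kidneys, where fewer members passed. Cd81 was higher in KRM than in CD11chi, and Tyrobp was lower in KRM than in CD11clo. Cd81 exceeded CD11chi by 1.49 ± 0.311 (adjusted p = 0.0347), with no overlap between 988 to 1390 CPM in KRM and 302 to 654 CPM in CD11chi. This call was lost in limma on the log2 table (1.23, adjusted p = 0.316, or 1.82 and 0.0677 without the column that differed between the tables), in the fit over all 6 groups (adjusted p = 0.0641) and without CD11chi RAS library 2, 3 or 4 or KRM RAS library 2 or 3 (adjusted p from 0.0616 to 0.143). Tyrobp differed from CD11clo by -1.38 ± 0.252 on the log2 scale (adjusted p = 0.0288), and every KRM RAS library lay below every CD11clo RAS library, a call lost without CD11clo RAS library 2 or 4 or KRM RAS library 2 or 3 (adjusted p from 0.0834 to 0.135). In KRM RAS libraries 2 and 3 the macrophage marker list summed to 4640 and 5920 CPM, against 8720 CPM in library 1 and 7840 to 11000 CPM in CD11clo RAS libraries, and the part of this gap in the Tyrobp difference was not tested. In CD11chi RAS against KRM RAS libraries dendritic cell markers summed to 1110 to 5470 against 189 to 242 CPM. Distal nephron markers summed to 90.7 to 204 against 143 to 4940 CPM. In CD11clo RAS against KRM RAS libraries neutrophil markers summed to 272 to 1360 against 0.183 to 6.97 CPM. Monocyte markers summed to 2040 to 4900 against 533 to 957 CPM. Their part in the Cd81 and Tyrobp differences was not tested.

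Of 9 members tested in RAS kidneys, 1 was called higher and 0 lower in KRM than in CD11chi (4.17% and 5.07% of 13226 genes). Against CD11clo 0 were called higher and 1 lower (3.28% and 5.89% of 13179 genes). Without KRM RAS libraries 2 and 3 and CD11clo RAS library 3 these counts were 0 against CD11chi and 2 against CD11clo (Tmem119 and Olfml3), KRM being left with 1 library, which was assumed to vary like the other groups. Between CD11chi and CD11clo, edgeR called 0 of 8 (5.15% of 12305 genes higher and 3.12% lower), with 1 at an unadjusted p under 0.05, 0 by DESeq2 and 0 by limma. That 1 was P2ry12, lower in CD11chi by a log2 fold change of -2.29 ± 0.982 (adjusted p = 0.175) and by -4.13 with an adjusted p of 0.0134 without CD11chi RAS library 1.

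Single libraries changed several of these calls. CD11clo RAS library 3 and CD11chi RAS library 1 were the highest of their groups in several of the members tested. Leaving out the highest library of a group lowers that group for those members, so such calls, here and above, are no support for a difference. The shares of all genes called in these fits are not given here. Without CD11clo RAS library 3 the KRM against CD11clo comparison called 5 members, Tmem119 (2.98, adjusted p = 0.0235), Olfml3 (2.48, adjusted p = 0.00534), Cd81 (2.43, adjusted p = 0.0115), Trem2 (0.61, adjusted p = 0.0381) and Tyrobp. With that library Tmem119 stood at 1.90 ± 0.777 (adjusted p = 0.138). Without CD11chi RAS library 1 the KRM against CD11chi comparison also called 5, Tmem119 (4.29, adjusted p = 0.0181), P2ry12 (4.04, adjusted p = 0.0196), Olfml3 (2.29, adjusted p = 0.0425), Tyrobp (-1.27, adjusted p = 0.034) and Cd81. With that library Olfml3 stood at 1.56 ± 0.657 (adjusted p = 0.155) and Tyrobp at -1.18 ± 0.344 (adjusted p = 0.0673).

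**Figure D3:**
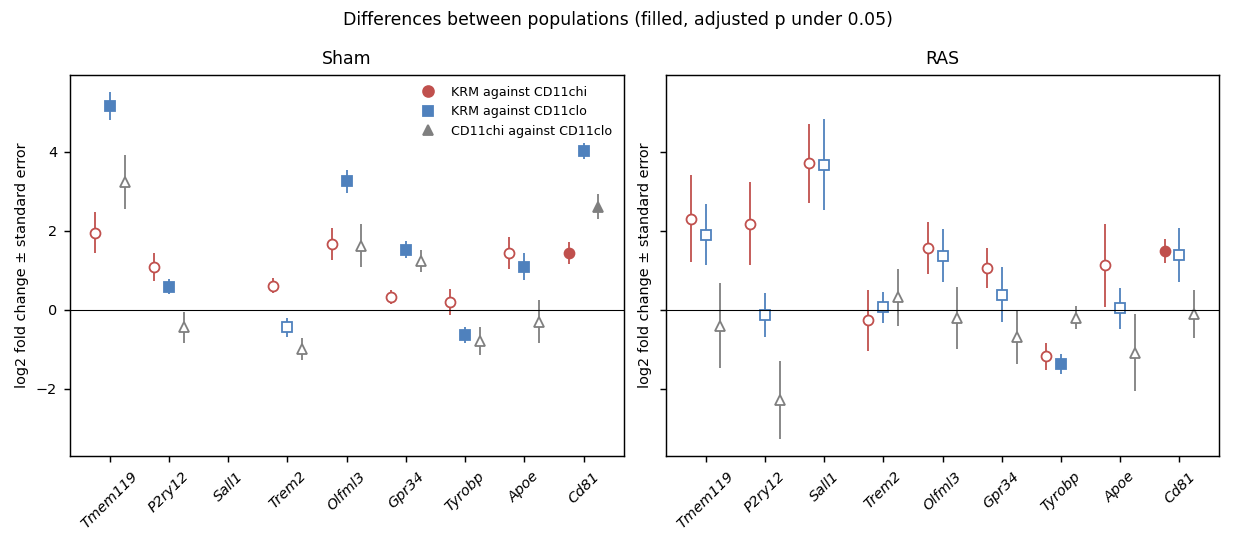
Log2 fold change with its standard error for each member tested, between KRM and CD11chi, KRM and CD11clo, and CD11chi and CD11clo macrophages, in Sham (left) and RAS (right) kidneys. Filled symbols have an adjusted p under 0.05, and a reader should see 6 filled squares above 0 in Sham but none there in RAS, where the error bars are longer and Sall1 is drawn although its test is not read.

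In RAS kidneys 4 of 34 tested resting-microglia genes were called higher and 2 lower in KRM than in CD11chi, and 1 of 35 higher and 2 lower than in CD11clo, beside 4.17% and 5.07% of all genes against CD11chi and 3.28% and 5.89% against CD11clo, so that the CD11clo counts were near the background. The higher calls against CD11chi included Gpr56 and Serpine2, which stood at 6.68 and 1.38 CPM in KRM RAS library 1 and were high only in libraries 2 and 3, those with large distal nephron sums. Fcrls stayed lower than in CD11chi (-2.74 ± 0.439, 69.1 ± 19.5 against 484 ± 188 CPM), and Ltc4s lower than in CD11clo (-2.99 ± 0.457). The list around TREM2 and TYROBP held lower calls only in RAS kidneys, 3 of 18 against CD11chi and 9 of 18 against CD11clo, with Trem1 at -3.19 ± 0.24 and -6.99 ± 0.789. Among regulators, 2 of 15 were higher in each of these comparisons, and Csf1 was lower than in CD11clo (-2.69 ± 0.539). Between CD11chi and CD11clo, Itgax (4.12 ± 0.594), the lipoprotein lipase gene Lpl (1.81 ± 0.324) and Cst3, the gene of cystatin C (1.60 ± 0.416), were higher in CD11chi, and Trem1 (-3.77 ± 0.526) and Sorl1, a sorting receptor that binds APOE (-1.81 ± 0.326), lower.

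The effect of stenosis was asked next within each population. In KRM, Trem2 and Olfml3 rose after RAS and Cd81 fell, and these were the 3 members that passed. In CD11chi and CD11clo macrophages edgeR called no gene, while DESeq2 called 1 member, Olfml3, in CD11clo.

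Trem2 in KRM went from 25 to 35.6 CPM in the 4 Sham libraries to 53.7 to 64.1 CPM in the 3 RAS libraries, without overlap. The log2 fold change was 1.17 ± 0.157 (adjusted p = 0.0154). Olfml3 went from 30.3 to 43.2 CPM to 47.0 to 66.2 CPM, also without overlap (0.77 ± 0.167, adjusted p = 0.0357). Cd81 fell from 1880 to 2770 CPM to 988 to 1390 CPM (-0.84 ± 0.187, adjusted p = 0.037). Each of these calls was lost without KRM Sham library 2 or 4 or KRM RAS library 2 or 3, with adjusted p from 0.0521 to 0.0613 for Trem2, 0.0776 to 0.122 for Olfml3 and 0.0979 to 0.131 for Cd81. Without KRM RAS libraries 2 and 3 and KRM Sham library 3, edgeR called Trem2 (1.16, adjusted p = 0.0154), Olfml3 (0.90, adjusted p = 0.0431) and Gpr34 (1.27, adjusted p = 0.00475) but not Cd81 (adjusted p = 0.079), the remaining RAS library being assumed to vary like the others. In limma on the log2 table Olfml3 stood at 0.29 (adjusted p = 0.556) and Cd81 at -1.52 (adjusted p = 0.0547) with the column of KRM RAS library 1 that differed between the tables. Without that column limma called both, Olfml3 at 0.61 (adjusted p = 0.0362) and Cd81 at -0.94 (adjusted p = 0.00141). Olfml3 was also lost without KRM Sham library 1 or 3 (adjusted p of 0.0677 and 0.0531), and Cd81 without KRM Sham library 1 (adjusted p = 0.0954).

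Among the other members in KRM, Gpr34 was above the Sham range in every RAS library (0.82 ± 0.223, adjusted p = 0.0566), and Tmem119 was below it in every RAS library (-0.93 ± 0.341, adjusted p = 0.104). Tyrobp was also below its Sham range (-0.63 ± 0.244, adjusted p = 0.118). P2ry12 and Apoe overlapped between the conditions (adjusted p = 0.71 and 0.596). Without KRM RAS library 1, edgeR called 6 of the other 8 members beside Sall1, with Tmem119 at -1.53 (adjusted p = 0.000484), Gpr34 at 0.44 (adjusted p = 0.0277) and Tyrobp at -0.89 (adjusted p = 0.0111) added. That fit left RAS libraries 2 and 3, both with high distal nephron sums, and its share of all genes called is not given here. These libraries differed from each other by a root mean square of 0.496 log2 CPM, and from library 1 by 1.75 and 1.63. Without KRM RAS libraries 2 and 3 and KRM Sham library 3, Tmem119 stood at -0.32 (adjusted p = 0.615) and Tyrobp at -0.35 (adjusted p = 0.66). With all libraries, 2 of the 9 members were called higher and 1 lower, against 7.77% and 1.94% of 12852 genes. The fit over all 6 groups called 0 members (adjusted p of 0.249 for Trem2, 0.562 for Olfml3 and 0.261 for Cd81).

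Markers of other cells moved with RAS in KRM. The distal nephron list, of which all 10 genes were above 0 in KRM RAS libraries, summed to 143, 4940 and 3730 CPM in RAS and to 13 to 231 CPM in Sham libraries. The macrophage list summed to 8720, 4640 and 5920 CPM in RAS and 9550 to 10800 CPM in Sham libraries. Csf1r, the growth factor receptor of all macrophages, was at 3070, 1540 and 2030 CPM in RAS and at 3440 to 3720 CPM in Sham libraries. KRM RAS library 1 held 1170 CPM of proximal tubule markers, against 280 to 351 CPM in KRM Sham libraries 1, 2 and 4 and 1910 CPM in library 3. Its distal nephron sum of 143 CPM compared with 13, 14 and 14 CPM in Sham libraries 1, 2 and 4 and 231 CPM in library 3, so epithelial transcripts were present there too. In that library Trem2 at 64.1, Olfml3 at 66.2, Gpr34 at 89.5, Tmem119 at 219 and Cd81 at 1390 CPM were each outside the Sham range, in the same direction as in libraries 2 and 3. Stroma markers summed to 43, 482 and 544 CPM in RAS and 19.4 to 39.5 CPM in Sham libraries, endothelium markers to 14.7, 211 and 181 against 10.5 to 23.7 CPM, and podocyte markers to 2.75, 82 and 81 against 2.09 to 4.33 CPM. The T and NK cell list summed to 359, 43.0 and 38.4 CPM in RAS and 2.84 to 3.61 CPM in Sham libraries, and the dissociation stress list to 20200 to 25100 against 30600 to 47200 CPM. B and plasma cell markers summed to 409, 73.8 and 73.5 CPM in RAS and 411 to 516 CPM in Sham libraries. Per 1000 CPM of the macrophage list, Trem2 stood at 7.36, 11.6 and 10.7 in RAS against 2.3 to 3.48 in Sham libraries, Olfml3 at 7.59, 10.1 and 9.13 against 3.08 to 4.23, and Gpr34 at 10.3, 9.91 and 8.83 against 3.23 to 3.97. P2ry12 and Apoe, which overlapped in CPM, lay above every Sham library on that scale as well, P2ry12 at 4.2, 3.32 and 4.42 against 1.9 to 2.84 and Apoe at 1160, 1490 and 1280 against 496 to 1020. Tyrobp at 89.9, 106 and 88.4 overlapped with its Sham values of 78.9 to 134. On the same scale Cd81 at 159, 213 and 190 overlapped with its Sham values of 197 to 271, and Tmem119 at 25.1, 17.5 and 16.3 with its Sham values of 22.7 to 33.1. The macrophage list holds genes that themselves fell, such as Itgax, and the part of the transcripts of these other cells in the differences was not tested.

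**Figure D4:**
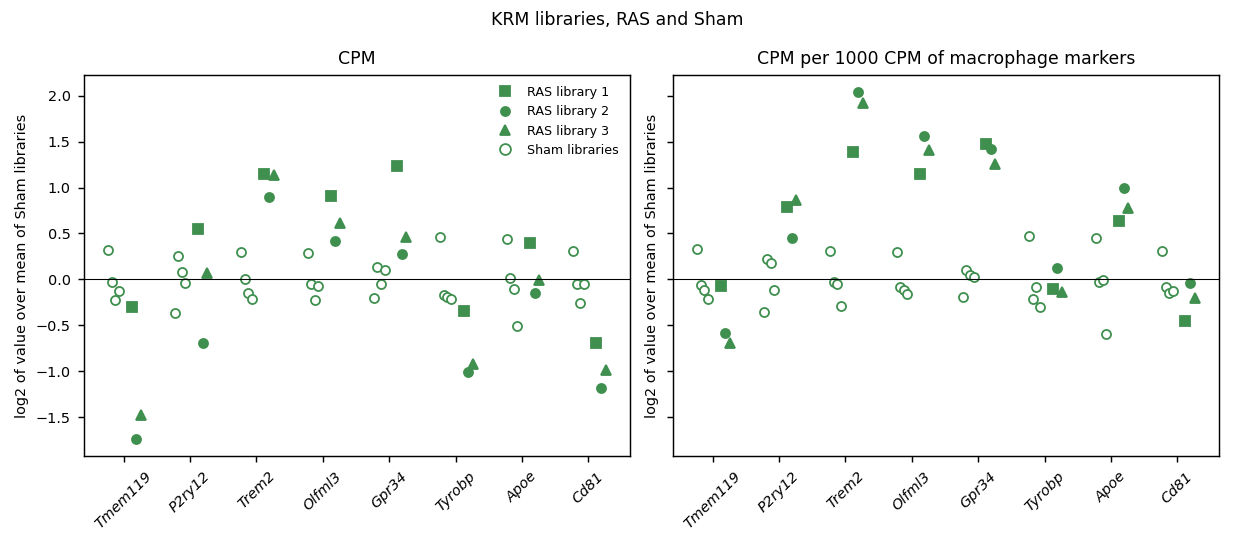
Level of 8 members in each KRM library as the log2 ratio to the mean of the 4 Sham libraries, in CPM (left) and per 1000 CPM of the macrophage marker list (right). Open points are Sham libraries and filled symbols the RAS libraries 1 to 3, and Trem2, Olfml3 and Gpr34 lie above all Sham points on both scales, P2ry12 and Apoe on the right, while Cd81, Tmem119 and Tyrobp lie below them on the left and overlap them on the right.

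The 250 bases upstream of the RefSeq start site (GRCm38.p6), which can differ by some bases from the GENCODE start, are shown for the 3 members that passed in KRM, because these promoters belong to the members whose level differed after RAS there. Searched on both strands were PU.1 (GAGGAAG), MAF (TGCTGAC), AP-1 (TGANTCA) and SMAD (CAGACA), and matches are in capitals. Trem2 lies at chr17:48346151-48346400 (plus strand), Olfml3 at chr3:103738002-103738251 (minus strand) and Cd81 at chr7:143052500-143052749 (plus strand).
Trem2: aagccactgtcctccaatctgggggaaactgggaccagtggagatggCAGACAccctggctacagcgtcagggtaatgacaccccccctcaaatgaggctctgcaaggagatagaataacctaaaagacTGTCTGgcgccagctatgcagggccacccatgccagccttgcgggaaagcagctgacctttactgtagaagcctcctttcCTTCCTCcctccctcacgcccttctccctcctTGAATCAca
Olfml3: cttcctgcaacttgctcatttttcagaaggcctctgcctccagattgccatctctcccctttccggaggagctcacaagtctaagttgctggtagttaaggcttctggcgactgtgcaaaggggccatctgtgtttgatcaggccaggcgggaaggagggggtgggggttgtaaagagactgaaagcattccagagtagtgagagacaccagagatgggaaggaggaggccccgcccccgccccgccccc
Cd81: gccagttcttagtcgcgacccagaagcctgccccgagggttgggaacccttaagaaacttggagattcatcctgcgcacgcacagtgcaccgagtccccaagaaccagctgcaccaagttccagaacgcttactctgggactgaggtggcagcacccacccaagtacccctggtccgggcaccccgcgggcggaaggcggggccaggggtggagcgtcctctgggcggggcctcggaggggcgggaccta
In Trem2 the PU.1 letters lay on the minus strand at -41 to -35 from the start site and the AP-1 letters at -9 to -3, with SMAD letters at -203 to -198 and, on the minus strand, at -121 to -116. No search letters were found in the windows of Olfml3 and Cd81, nor in those of P2ry12, Apoe and Sall1, the other members with an entry. Of 32851 promoter windows of this length, 10.6% held the PU.1, 6.75% the AP-1, 17.1% the SMAD and 3.81% the MAF letters. Tmem119, Gpr34 and Tyrobp have no entry.

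The fixed lists were counted in KRM after RAS as well, beside the 7.77% of all genes called higher and 1.94% lower. Of 22 damage-associated genes 6 were called higher and 2 lower. Spp1, which encodes osteopontin, was higher by 6.81 ± 1.41, but at 149 CPM in RAS library 1 against 7480 and 5230 CPM in libraries 2 and 3, the libraries with high distal nephron sums. Fabp5 was at 13.2, 20.3 and 18.7 CPM after RAS against 1.88 to 3.49 CPM (2.67 ± 0.293). Ank (-0.91 ± 0.114) and Itgax (-0.86 ± 0.204) fell. Of 33 resting-microglia genes 4 were called higher and 3 lower, with a median of -0.37 against 0.02 over all genes. The higher ones included Gpr56 and Serpine2, at 6.68 and 1.38 CPM in RAS library 1 but 470 and 376 CPM, and 45.8 and 41.7 CPM, in libraries 2 and 3. Serpine2 stood at 0.523 to 0.842 CPM in Sham libraries and passed the filter only through RAS libraries. No difference is therefore read from Serpine2, although it is counted among the 4. Slco2b1 (-1.14 ± 0.288) and the ribonuclease gene Rnase4 (-1.05 ± 0.215) fell.

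Among the regulators 3 of 15 were called higher and 2 lower in KRM after RAS. Csf1 rose by 1.43 ± 0.338 (8.54 ± 2.45 to 21.1 ± 7.63 CPM), and the transcription factor gene Runx1 (-0.99 ± 0.234) fell. Csf1 stood at 12.4 CPM in RAS library 1, close to its Sham range of 5.34 to 11.2 CPM. In RAS libraries 2 and 3, those with high distal nephron sums, it stood at 26.4 and 24.6 CPM. Of 18 genes around TREM2 and TYROBP only Clec5a was called, and it fell (-0.75 ± 0.156). Of 14 Apoe partners, Pltp (1.21 ± 0.139) and the cholesterol exporter gene Abca1 (0.96 ± 0.188) rose and Scarb1, the high density lipoprotein receptor gene, fell (-0.76 ± 0.177). Of 12 tetraspanins edgeR called 0, with 6 at an unadjusted p under 0.05. Of 13 receptors and enzymes 4 were higher and 0 lower, including Nt5e (3.64 ± 0.794), which makes adenosine and stood at 10.6, 32.7 and 33.5 CPM against 0.212 to 4.59 CPM.

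In CD11chi macrophages edgeR called 0 of 8 members after RAS, 0% of 12739 genes being called higher and 0% lower. At an unadjusted p under 0.05 there were 2, Trem2 (1.95 ± 0.825, adjusted p = 0.508) and Cd81 (-0.96 ± 0.373, adjusted p = 0.508), and DESeq2 and limma called 0. Trem2 was at 16 to 20.8 CPM in Sham and at 20.1 to 200 CPM in RAS libraries, the highest being library 2, and without that library its log2 fold change was 0.72. The 4 RAS libraries differed among themselves, since libraries 3 and 4 held dendritic cell marker sums of 5110 and 5470 CPM with low Apoe (509 and 275 CPM), while libraries 1 and 2 held 1110 and 2040 CPM of those markers. The T and NK cell list summed to 75.1 to 258 CPM in RAS and 2.87 to 32.3 CPM in CD11chi Sham libraries, and stroma markers to 31.6 to 324 against 18.7 to 25.7 CPM, and their part in these values was not tested.

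In CD11clo macrophages 0 of 8 members were called, again with 0% of 12301 genes higher and 0% lower. At an unadjusted p under 0.05 there were 4, Olfml3 (2.63 ± 0.788), Tmem119 (2.29 ± 0.842), Gpr34 (1.95 ± 0.742) and Cd81 (1.75 ± 0.721), each with an adjusted p of 0.553. Without CD11clo RAS library 3 they were 1.53, 1.22, 1.04 and 0.71. DESeq2 called Olfml3 (adjusted p = 0.0309) and limma called 0. Each of the 4 was highest in CD11clo RAS library 3, and the Olfml3 levels of 8.13 to 59 CPM after RAS did not overlap with 2.21 to 4.4 CPM in Sham libraries. The monocyte marker list summed to 2040 to 4900 CPM in RAS and 2530 to 9310 CPM in Sham libraries, and the macrophage list to 7840 to 11000 and 6950 to 7230 CPM. The T and NK cell list summed to 12.2 to 39.9 CPM in RAS and 0.62 to 7.29 CPM in Sham libraries, stroma markers to 9.47 to 416 against 25.9 to 80.5 CPM, endothelium markers to 20.6 to 227 against 17.4 to 29.2 CPM and podocyte markers to 0.823 to 41.1 against 0.103 to 3.32 CPM, and their part in these values was not tested.

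Whether the response to RAS differed between populations was tested with an interaction term. No member passed in edgeR. Between KRM and CD11chi the background was 0% of 14137 genes higher and 0% lower, with 1 member beside Sall1 at an unadjusted p under 0.05, Tyrobp, which DESeq2 called. Tyrobp had a difference of -1.32 ± 0.475 (adjusted p = 0.142). Between KRM and CD11clo 0.223% of 13877 genes were called higher and 0.0216% lower, and 4 members had an unadjusted p under 0.05. Tmem119 had a difference of -3.26 ± 0.971 (adjusted p = 0.0968) and Cd81 of -2.66 ± 0.796 (adjusted p = 0.0972), KRM levels being lower after RAS and CD11clo levels higher in each. Olfml3 (-1.90 ± 0.823) and Tyrobp (-0.74 ± 0.33) had adjusted p of 0.187 and 0.199. Both Tmem119 and Cd81 passed without KRM RAS library 1 (adjusted p of 0.0269 and 0.0495), limma on the log2 table called Tmem119 (adjusted p = 0.0227) and DESeq2 called Cd81 (adjusted p = 0.0122). Without CD11clo RAS library 3 the differences were -2.24 for Tmem119 and -1.64 for Cd81 (adjusted p of 0.117 and 0.0942), and without the libraries that stood apart -1.38 and -1.66 (adjusted p of 0.805 and 0.463). Between CD11chi and CD11clo the background was 0% of 13540 genes higher and 0% lower, with Tmem119 (-3.61 ± 1.6) and Cd81 (-2.67 ± 0.843) at an unadjusted p under 0.05 (adjusted p = 0.735 for both) and 0 calls by DESeq2 and limma.

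Sall1 (chr8:89027235-89044162, minus strand), the nuclear factor of the microglial programme, was close to the limit of detection in most libraries. KRM of Sham kidneys held 0, 0.846, 1.7 and 0.105 CPM of Sall1, CD11chi macrophages 0, 0 and 10.8 CPM and CD11clo macrophages 0.517, 0 and 2.1 CPM. With RAS the levels of Sall1 were 1.28, 8.6 and 6.69 CPM in KRM, 0.281, 0, 0.355 and 1.09 CPM in CD11chi and 0, 1.19, 0.452 and 0.122 CPM in CD11clo macrophages. These levels rest on 86 counts in CD11chi Sham library 3, 99 and 73 in KRM RAS libraries 2 and 3, 34 in KRM Sham library 3 and at most 19 in the other 17 libraries, 6 of which are listed at 0. Where a library holds 0 counts, up to 3 counts remain possible from counting error alone. The 3 highest libraries were also those with the highest distal nephron sums (1770, 4940 and 3730 CPM). In the 3 KRM Sham libraries with few tubule markers Sall1 stood at 0, 0.846 and 0.105 CPM. Too few counts kept Sall1 out of the Sham comparisons, of CD11chi against CD11clo in RAS kidneys and of RAS against Sham in CD11chi and CD11clo. In the comparisons with KRM RAS it passed the filter through those libraries, with 13, 99 and 73 counts, while KRM Sham libraries held 0, 8, 34 and 1, CD11chi RAS libraries 3, 0, 3 and 9 and CD11clo RAS libraries 0, 10, 4 and 1 counts. A test on a gene admitted through the group where it is high is no support for a difference, so no fold change of Sall1 is read from these comparisons, and the part of epithelial transcripts in these values was not tested.

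**Figure D5:**
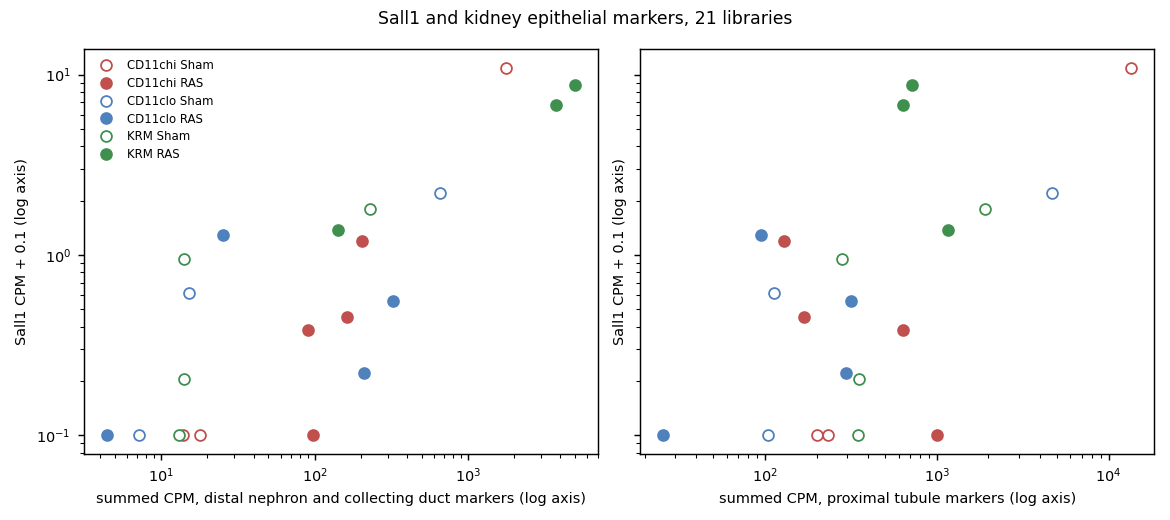
Sall1 level (CPM plus 0.1) of each of the 21 libraries against the summed CPM of the distal nephron and collecting duct markers (left) and of the proximal tubule markers (right), all on log axes. The libraries with 6.69 to 10.8 CPM of Sall1 are the 3 with distal nephron sums of 1770 to 4940 CPM.

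Across the 21 libraries, the genes with the pattern nearest to a member were found by the smallest root mean square difference of log2 CPM centred on each gene, among 8185 genes. For Tmem119, whose own spread on that scale was 2.208, they were Lilra5 (0.537), Itga9, an integrin subunit gene (0.572), and Slco2b1 (0.725). Lilra5 stood at 678 CPM in KRM Sham, 323 in KRM RAS, 234 in CD11chi Sham, 59 in CD11chi RAS, 24.1 in CD11clo Sham and 146 in CD11clo RAS libraries, on average. For P2ry12 (spread 1.556) they included Tlr7 (0.661) and Emr1, which encodes the F4/80 used in the sort (0.686). For Trem2 (spread 0.871) they were Pwwp2b (0.63), Ctsb, the gene of cathepsin B (0.659), and Blvrb (0.673), a distance close to its own spread. For Sall1 (spread 1.816) they were Nckap1 (0.815), Ldhb (0.951) and Rab3ip (0.973), with Ldhb at 554 CPM in KRM RAS, 432 CPM in CD11chi Sham and 56.4 CPM in KRM Sham libraries.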

How the data were processed

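RNA-sequencing of flow-sorted kidney macrophages was read from 2 deposited tables. Per the study's methods, the authors made SMART-Seq v4 cDNA and Nextera XT libraries, aligned paired-end reads to mm10 with the OSA aligner and used Ensembl R83 genes. The authors deposited estimated counts per gene, of which 9.7 to 14.2% per library were not whole numbers, and log2(TPM + 1) values that they had quantile normalised. Strand use and software versions are not given in the sources used here, so reads of overlapping genes on opposite strands cannot be told apart.

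The estimated counts were rounded to whole numbers and tested with edgeR 4.0.16 (quasi-likelihood test, TMM factors, R 4.3.3) on the groups of each of 12 comparisons, after filterByExpr (minimum count 10, minimum total 15), with Benjamini-Hochberg adjustment over all genes and a threshold of 0.05. Fold changes of members are given at an unadjusted p under 0.05. Alternatives were DESeq2 1.42.0, the log2 table tested in limma 3.58.1, other factors and filters, 1 fit over 6 groups, a replicate block and leaving out each library. Leaving out 6 libraries, or the log2 column that differed between the tables, was chosen after seeing the data. The scripts were tested on counts simulated with a fixed spread, while real replicate pairs differed by a root mean square of 0.496 to 2.01 log2 CPM. Of simulated 2-fold changes edgeR recovered 74% for KRM against CD11chi in Sham kidneys and 75% for KRM after RAS. It recovered 16% for the response of KRM minus CD11clo, and these shares need not hold for the real libraries.

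The members and lists were chosen with earlier results of these data known. From each list up to 2 called genes per direction were named, those with the largest change at an average log2 CPM of at least 3, and further genes named for their levels were chosen after their values were seen. Same-numbered libraries deviated together in Sham kidneys (correlations of deviations from 0.369 to 0.674 for CD11chi with CD11clo, 0.23 to 0.618 for CD11chi with KRM and 0.223 to 0.575 for CD11clo with KRM) but not in every pair otherwise. The highest of each were those of library 3, rich in tubule markers in every Sham population, and the part of these transcripts was not tested. All replicate pairs differed beyond counting noise. Limits for counts of 0 cover counting error only.

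Some genes that the rules would name are not reported here.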

Additional observations from a re-analysis of the deposited data

Results flagged for a closer look

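In the 3 groups of 4 libraries, the highest and the lowest library of each member were set against the others, 27 tests in all, of which chance would flag about 1 in 20. In 7 of them the highest library stood apart by Dixon's criterion. CD11clo RAS library 3 gave 4 of the 7, with Trem2 at 117 CPM against 39.2 to 43.8 CPM in the other 3, Olfml3 at 59.0 against 8.13 to 13.6 CPM, Apoe at 17500 against 4510 to 5590 CPM and Cd81 at 1200 against 152 to 331 CPM. CD11chi RAS library 1 gave Tmem119 at 89.4 CPM against 1.58 to 14.4 CPM and P2ry12 at 18.8 against 0.243 to 3.19 CPM. KRM Sham library 1 gave Tyrobp at 1370 CPM against 855 to 880 CPM.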

How the results depend on the processing

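Of the 9 members, edgeR called 1, 7 and 1 in Sham kidneys (KRM against CD11chi, KRM against CD11clo, CD11chi against CD11clo), 1, 1 and 0 in RAS kidneys in the same order, 0, 0 and 3 for RAS against Sham in CD11chi, CD11clo and KRM, and 0 for each response difference. Median-of-ratios factors and plain library totals gave the same counts. With no filter the Sham counts were 0, 5 and 1. The fit over all 6 groups gave 0, 3 and 1 in Sham kidneys and 0 for KRM after RAS. The replicate block gave 0, 6 and 3 in Sham kidneys, where same-numbered libraries deviated together, although no label states that the numbers pair the libraries. Correlations of same-numbered libraries between populations of RAS kidneys were also positive. They were 0.061 to 0.256 for CD11chi with CD11clo, 0.052 to 0.366 for CD11chi with KRM and 0.07 to 0.518 for CD11clo with KRM. The block gave 0, 0 and 0 in RAS kidneys and 0 for KRM after RAS. DESeq2 gave 5, 7 and 4 in Sham and 3, 3 and 0 in RAS kidneys, 0, 1 and 7 after RAS, and 1, 1 and 0 for the response differences. Limma gave 1, 6 and 1 and 0, 1 and 0, then 2 for KRM after RAS and 1 for the response of KRM minus CD11clo, and with a pseudocount of 0.1 it gave 0, 5 and 0 and 0, 0 and 0, with 2 and 1. Without the KRM RAS column that differed between the tables limma called 6 for KRM after RAS and 1 for KRM minus CD11clo. Without the 6 libraries that stood apart edgeR gave 4, 7 and 5 in Sham, 0, 2 and 0 in RAS kidneys, and 3 for KRM after RAS. Why these counts moved was not tested, and the shares of all genes called under these alternatives are not given here.

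Leaving out 1 library at a time gave 0 to 4, 4 to 7 and 0 to 2 calls in Sham kidneys, 0 to 5, 0 to 5 and 0 to 1 in RAS kidneys, 0 to 7 for KRM after RAS and 0 to 2 for KRM minus CD11clo. Counts of calls include Sall1 in RAS comparisons of KRM, where DESeq2, and edgeR without KRM RAS library 1, called it in all 3. No difference is read from Sall1, which was tested only through libraries where it is high, and its fitted response of KRM minus CD11chi was not stable in sign, going from 6.12 to -2.15 without CD11chi Sham library 3, with a highest value of 7.23 without KRM Sham library 3, and to -3.00 without the 6 libraries. Where a member had an unadjusted p under 0.05 in a comparison, it kept their direction and side of the threshold in 706 cases, lost a call in 86, gained one in 59 and changed sign in 2. Members above that limit, some of which changed sign as well, are not counted here. Groups of 3 or 4 libraries and single libraries rich in epithelial transcripts limit these comparisons, and for Sall1 the low counts do as well.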
